A study of Mus musculus with 10 samples.

Results

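The BCL2 family of cell death regulators was examined in RNA of cardiomyocytes isolated 4 days after myocardial infarction (MI). Its 10 members were chosen by name, as the rows of the count table whose Ensembl identifiers carry these symbols in the GENCODE M21 annotation, and all 10 were found among the 51789 genes of the table. The family here consisted of the anti-apoptotic genes Bcl2, Bcl2l1 and Mcl1, the effector genes Bax and Bak1, the BH3-only genes Bbc3, Pmaip1, Bid and Bad, and the mitochondrial gene Bnip3. Cardiomyocytes came from 5 mice with cardiomyocyte-specific transgenic overexpression of GRK5, a kinase of G protein-coupled receptors (TgGRK5-MI), and from 5 non-transgenic littermate controls (NLC-MI), with 1 library per mouse. All 10 mice had undergone MI by permanent ligation of the left coronary artery, so the libraries hold no sham group and no comparison of infarcted with uninjured hearts. The study used young adult mice of both sexes for these operations, and the labels do not tie an age or a sex to each library. The promoter of the transgene is not given in the sources used here.

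Proteins of the BCL2 family decide whether the outer membrane of mitochondria stays intact. BAX and BAK form pores in that membrane through which cytochrome c escapes and starts the caspase cascade, BCL2, BCL-XL (the product of Bcl2l1) and MCL1 hold them in check, and the BH3-only proteins respond to stress by neutralizing the guardians or activating the pore formers. In the heart, loss of cardiomyocytes after ischemia proceeds in part by this route, and MCL1 and BNIP3 are also known for their roles in the upkeep and the clearance of mitochondria. Much of the control over these proteins acts after transcription, by phosphorylation, cleavage, relocation and protein turnover, which RNA counts do not measure.

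Counts per library ran from 7968779 in NLC-MI replicate 3 to 23381527 in NLC-MI replicate 2, with TgGRK5-MI replicate 4 (9114469) the second smallest. Grk5 lay between 46.5 and 73.0 CPM (counts scaled by the effective library size) in NLC-MI, against 551.4 to 1698 CPM for TgGRK5-MI, so all libraries matched their labels. Cardiomyocyte markers (8 genes such as Myh6 and Tnnt2) summed to between 48820 and 126400 CPM, leukocyte markers (12 genes) to between 544.4 and 1841 CPM, and fibroblast markers (6 genes) to between 3059 and 18540 CPM. Ly6g, a neutrophil marker, had at most 1 count in any library. S100a8 and S100a9 of the same leukocyte list had 12 to 81 and 15 to 106 counts a library. NLC-MI replicate 3 and TgGRK5-MI replicate 4 stood apart from the other 8 libraries, having the fewest counts and the lowest levels of GC-rich transcripts relative to other genes. Their endothelial markers (6 genes) also summed highest, to 1328 and 1396 CPM, against 713.2 to 1152 CPM in the other 8. These 2 libraries were singled out after the data were seen and are not groups of the study. The correlations, the spread of Bak1 and the ratio of Bax to Bak1 are given with and without them. In such bulk samples, fewer cells of a type and less RNA per cell cannot be told apart.

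No member of the family differed between TgGRK5-MI and NLC-MI at an adjusted p under 0.10 in edgeR's quasi-likelihood test (0 of 10 members, against 0.0788% of the 15232 genes tested). All 10 members passed the filter on low counts. By point estimate TgGRK5-MI was higher for 6 members and lower for 4, with a median log2 fold change of 0.07, beside 0.00 over all genes tested. For none of the 10 did the groups separate, where 0.998% of all genes tested had groups that did not overlap. At an unadjusted p under 0.05 there was 1 member, Bcl2, where 3.85% of all genes tested lay under that value. Split by direction, TgGRK5-MI was higher for 1.77% and lower for 2.08% of all genes tested at that unadjusted p, and 0.0525% and 0.0263% at the adjusted p. The 95% intervals of the log2 fold changes ran at their widest from -0.97 (Bbc3) to 0.97 (Bak1), so that each of the 10 intervals lay inside a 2-fold difference in either direction, as did those of 75.9% of all genes tested. The intervals of 4 members (Bcl2l1, Mcl1, Bax and Bnip3) also lay inside 1.5-fold.

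**Figure D1:**
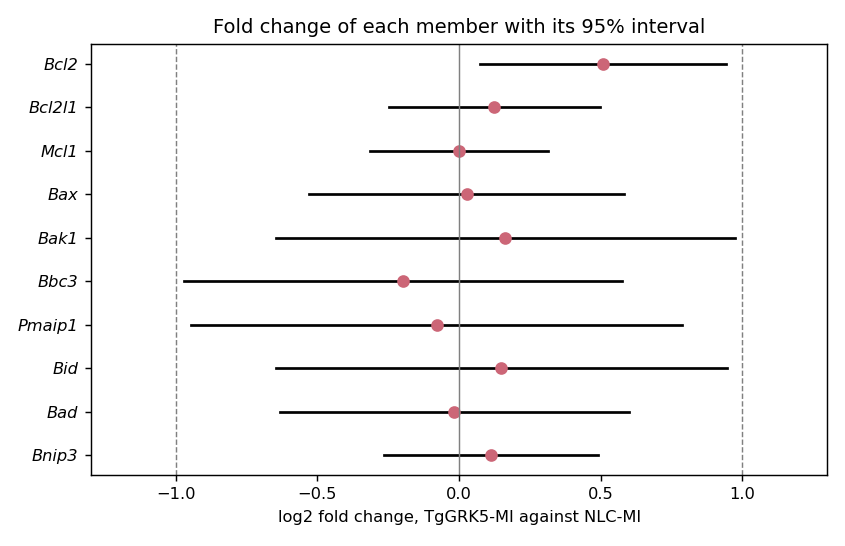
Fold change of each member in TgGRK5-MI against NLC-MI on the log2 scale (x axis), with the point estimate and the 95% interval from edgeR's quasi-likelihood fit over 5 and 5 libraries. Dashed lines mark a 2-fold difference, which no interval reaches, and only the interval of Bcl2 (from 0.07 to 0.94) lies wholly on 1 side of 0.

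The plot of fold changes shows Bcl2 as the member with the largest estimated difference. Bcl2, the founding member of the family and a guardian of the mitochondrial membrane, is encoded by ENSMUSG00000057329 on the reverse strand of chromosome 1 of GRCm38 (106538178 to 106714274). In NLC-MI its level was 13.5, 11.1, 14.2, 14.0 and 8.04 CPM in replicates 1 to 5. In TgGRK5-MI it was 19.5, 12.8, 21.2, 17.5 and 15.6 CPM. In 4 of the 5 TgGRK5-MI libraries Bcl2 lay above every NLC-MI library, while TgGRK5-MI replicate 2 lay within the NLC-MI range. The means were 12.2 ± 2.61 and 17.3 ± 3.29 CPM (SD, n = 5 each), and this 1.42-fold difference (95% interval 1.05 to 1.92) did not pass the test over all genes. The log2 fold change was 0.51 (standard error 0.20, unadjusted p = 0.0257, adjusted p = 1.0 in edgeR's quasi-likelihood test). Over the libraries alone, the two-sided exact permutation test of log2 CPM gave p = 0.0397, where 0.00794 is the smallest p that 5 against 5 libraries allow. The log2 fold change was positive under all 22 alternatives (0.38 to 0.73, the highest with a sex score as covariate, adjusted p from 0.327 to 1.0), with an unadjusted p under 0.05 in 17 of them. Leaving out NLC-MI replicate 2 (unadjusted p = 0.0561), NLC-MI replicate 5 (0.0549), TgGRK5-MI replicate 1 (0.0636) or TgGRK5-MI replicate 3 (0.0690) took Bcl2 past 0.05 in the same edgeR fit.

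**Figure D2:**
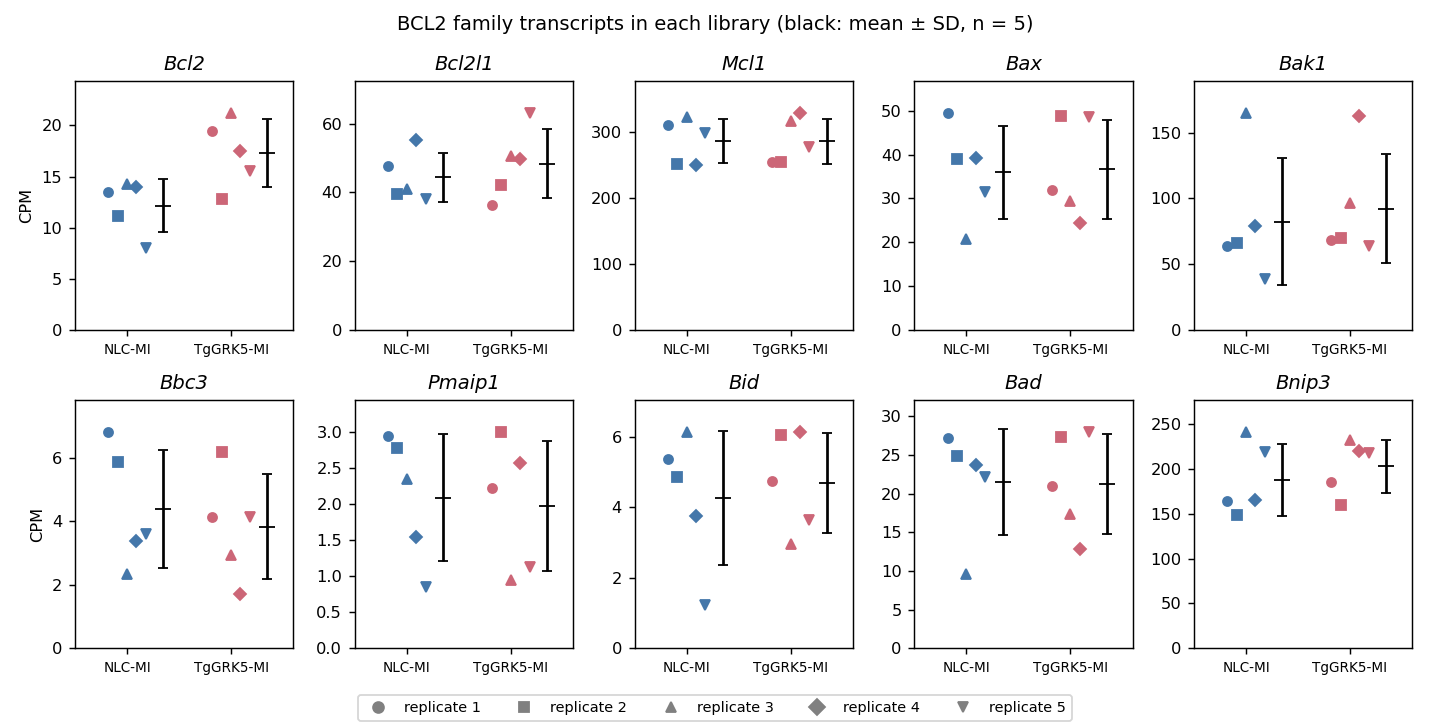
Level of each of the 10 members in each library in CPM (y axis, linear from 0), with NLC-MI in blue and TgGRK5-MI in red and symbols for the replicate number, which does not pair mice. Black marks show the mean ± SD of 5 libraries; the groups overlap for every member, and in NLC-MI replicate 3 and TgGRK5-MI replicate 4 Bak1 is high while Bax, Bad and Bbc3 are low.

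The sequences before the start sites of Bcl2, Bax and Bad are shown because Bcl2 had the lowest p of the family and because Bax and Bad varied most closely together over the libraries. Each holds the 250 bases before a RefSeq start site, 5′ to 3′ on the strand of the gene, from GRCm38.p6, with capitals for the GC box GGGCGG or its reverse complement. The RefSeq table holds 14 such windows for 9 of the 10 members, some with several windows. A GC box lies in 9 of the 14 windows, and 7 members have it in at least 1 window.
Bcl2 (chr1:106714291-106714540, reverse strand): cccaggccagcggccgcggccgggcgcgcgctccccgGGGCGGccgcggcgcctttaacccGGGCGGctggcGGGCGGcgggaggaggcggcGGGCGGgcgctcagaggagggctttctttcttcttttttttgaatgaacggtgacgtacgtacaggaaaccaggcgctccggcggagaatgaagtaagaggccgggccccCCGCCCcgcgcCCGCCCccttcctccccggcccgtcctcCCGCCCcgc
Bax (chr7:45466899-45467148, reverse strand): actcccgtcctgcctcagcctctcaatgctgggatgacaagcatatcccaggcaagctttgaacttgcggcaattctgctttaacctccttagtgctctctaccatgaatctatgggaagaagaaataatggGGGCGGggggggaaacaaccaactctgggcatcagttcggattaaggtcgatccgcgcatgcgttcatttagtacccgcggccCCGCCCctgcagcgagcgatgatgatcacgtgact
Bad (chr19:6941611-6941860, forward strand): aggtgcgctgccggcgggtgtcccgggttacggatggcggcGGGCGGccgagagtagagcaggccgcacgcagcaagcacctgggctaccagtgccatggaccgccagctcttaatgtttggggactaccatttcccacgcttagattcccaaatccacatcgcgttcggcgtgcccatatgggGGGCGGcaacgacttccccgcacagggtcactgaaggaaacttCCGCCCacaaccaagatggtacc
The Bcl2 window holds 7 GC boxes and has 74.8% G and C, a share above that of 95.8% of all 32851 promoter windows of the same length. The Bax window has 2 GC boxes and 54.0% G and C, and the Bad window shown has 3 GC boxes and 62.8% G and C. Another Bad window (chr19:6942312-6942561), not shown, has 64.8% G and C and 0 GC boxes. A GC box was found in 32.7% of all windows, counting both strands, beside 9 of 14 windows of members. Windows of a gene are not independent, and those of Bbc3 at chr7:16310011-16310260 and chr7:16310181-16310430 overlap. No enrichment was tested. The palindromic E-box CACGTG, found in 6.02% of all windows, occurred in 1 window each of 3 members, namely Bax, Bbc3 (which has 3 windows) and Bnip3. These matches describe letters only and were not set against any measurement of binding.

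The other guardians were close to equal in the groups. Mcl1 (ENSMUSG00000038612), whose short-lived product binds BAK and is needed for the upkeep of cardiomyocytes, averaged 286.5 ± 34.0 CPM for NLC-MI against 286.3 ± 34.2 CPM for TgGRK5-MI (SD, n = 5 per group). The fitted difference was -0.00 on the log2 scale with a 95% interval from -0.32 to 0.31, the narrowest of the family. Bcl2l1 (ENSMUSG00000007659) averaged 44.3 ± 7.13 CPM for NLC-MI against 48.4 ± 10.1 CPM for TgGRK5-MI, a log2 fold change of 0.12 (95% interval -0.25 to 0.50). The libraries of Bcl2l1 ran from 38.1 to 55.3 CPM for NLC-MI and from 36.2 to 62.9 CPM for TgGRK5-MI, so the TgGRK5-MI range enclosed that of NLC-MI.

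The effector genes differed more between libraries of a group than between the groups. Bax (ENSMUSG00000003873) stood at 49.4, 39.1, 20.6, 39.1 and 31.5 CPM in NLC-MI replicates 1 to 5 and at 32.0, 48.9, 29.4, 24.4 and 48.6 CPM in TgGRK5-MI replicates 1 to 5. The log2 fold change of Bax was 0.03 (95% interval -0.53 to 0.58). Bak1 (ENSMUSG00000057789) stood at 63.7, 66.1, 164.6, 79.2 and 38.6 CPM in NLC-MI and at 68.1, 70.0, 96.4, 162.5 and 64.1 CPM in TgGRK5-MI. NLC-MI replicate 3 and TgGRK5-MI replicate 4, which are also the libraries with the fewest counts, were thus far above all others for Bak1 and below all others for Bax. The log2 fold change of Bak1 was 0.16 (95% interval -0.65 to 0.97), and it became 0.57 without NLC-MI replicate 3 and -0.14 without TgGRK5-MI replicate 4, with neither fit giving an adjusted p under 0.10 in edgeR. Bak1 shares 437 of its exon bases with Ggnbp1 on the opposite strand, and no source here states whether counting used strand, so reads there cannot be assigned. Ggnbp1 was at 26.6 CPM in NLC-MI replicate 3 and 20.1 CPM in TgGRK5-MI replicate 4, within its range in the other libraries (17.6 to 37.2 CPM).

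Of the BH3-only genes, Bad was the most abundant. Bad (ENSMUSG00000024959), whose product links growth factor signaling to BCL-XL, stood at 27.2, 24.9, 9.67, 23.7 and 22.2 CPM in NLC-MI and at 21.04, 27.3, 17.4, 12.8 and 28.0 CPM in TgGRK5-MI. The lowest library of each group was again NLC-MI replicate 3 and TgGRK5-MI replicate 4, and the log2 fold change was -0.02 (95% interval -0.63 to 0.60). Bad shares 524 exon bases (20.5%) with Gpr137 on the opposite strand. Bbc3 (ENSMUSG00000002083), which encodes the p53 target PUMA, averaged 4.40 ± 1.86 CPM for NLC-MI against 3.83 ± 1.66 CPM for TgGRK5-MI (SD, n = 5 per group), on 16 to 155 counts a library, with a log2 fold change of -0.20 (95% interval -0.97 to 0.57). Pmaip1 (ENSMUSG00000024521), which encodes the MCL1 antagonist NOXA, was the scarcest at 2.10 ± 0.884 and 1.98 ± 0.903 CPM, on 11 to 69 counts a library. Across replicates 1 to 5 Pmaip1 was at 2.95, 2.79, 2.35, 1.55 and 0.850 CPM for NLC-MI and at 2.23, 3.01, 0.955, 2.58 and 1.13 CPM for TgGRK5-MI. The ranges covered each other almost wholly, and the difference on the log2 scale was -0.08 (95% interval -0.95 to 0.79). Bid (ENSMUSG00000004446), which carries the signal of death receptors to mitochondria once caspase-8 has cleaved its product, was at 4.27 ± 1.90 and 4.70 ± 1.42 CPM, with a log2 fold change of 0.15 (95% interval -0.65 to 0.95). Bid was at 5.37, 4.85, 6.14, 3.75 and 1.24 CPM for NLC-MI and at 4.74, 6.06, 2.95, 6.13 and 3.65 CPM for TgGRK5-MI, with NLC-MI replicate 5 the lowest for both Bid and Pmaip1. Bid shares 628 exon bases (17.7%) with Bcl2l13 on the opposite strand, which had from 560 to 2171 counts per library where Bid had from 19 to 139.

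Bnip3 (ENSMUSG00000078566), a hypoxia-responsive gene whose product marks mitochondria for removal by autophagy, averaged 187.5 ± 39.8 CPM for NLC-MI against 202.6 ± 29.7 CPM for TgGRK5-MI (SD, n = 5 per group). Its log2 fold change was 0.11 (95% interval -0.27 to 0.49), and the ranges of 148.6 to 240.7 CPM and 159.6 to 231.9 CPM lay almost on top of each other. Its close relative Bnip3l, taken from the wider list described further on, had a log2 fold change of 0.20 (95% interval -0.07 to 0.47).

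Scaled by exon length, the members ranged widely in level. Bnip3, at 86.1 CPM per kilobase of exon over all 10 libraries, and Mcl1, at 83.8, were the most abundant, above 95.95% and 95.8% of the genes tested. Bnip3 exceeded Mcl1 in 7 of 10 libraries, and their ranges overlapped. Bak1 (36.3 CPM per kilobase) and Bax (23.0) came next, with overlapping ranges and Bak1 above Bax in 6 of 10 libraries, and Mcl1 lay above Bak1 in all 10 without overlap. Bcl2l1 (10.1) and Bad (8.37) followed, with overlapping ranges and Bcl2l1 the higher in 5 of 10 libraries. The ranges of Bbc3 (1.94), Bcl2 (1.61), Bid (1.26) and Pmaip1 (0.746) overlapped from each to the next, and all 4 lay below the lowest value of Bad. Among the guardians the order per length was therefore Mcl1, Bcl2l1 and Bcl2 in both groups, with Bcl2 at 1.33 ± 0.285 CPM per kilobase in NLC-MI and 1.89 ± 0.360 in TgGRK5-MI (SD, n = 5 each). Over all 10 libraries the coefficient of variation was highest for Bak1 at 48.8% and lowest for Mcl1 at 11.2%. Without NLC-MI replicate 3 and TgGRK5-MI replicate 4 it was 23.8% for Bak1, below Pmaip1 (47.7%), Bid (37.4%), Bbc3 (31.3%) and Bcl2 (29.6%), and Mcl1 was again the lowest at 10.1%.

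**Figure D3:**
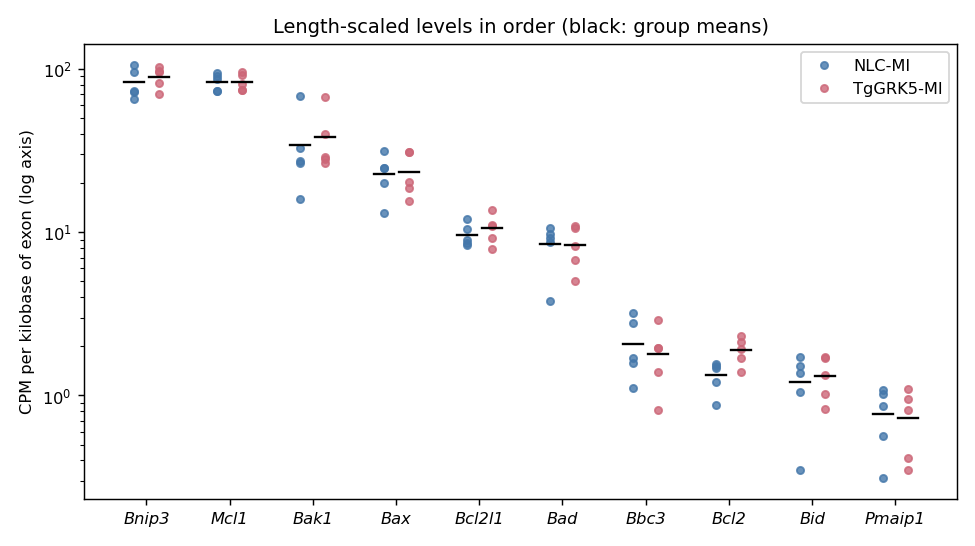
Level of the 10 members per kilobase of merged exon length (y axis, log scale), ordered by their mean over 10 libraries, with NLC-MI in blue, TgGRK5-MI in red and black bars for group means. Bnip3 and Mcl1 have means of 86.1 and 83.8 CPM per kilobase, and the libraries of Bcl2, Bbc3, Bid and Pmaip1 lie between 0.311 and 3.21.

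The balance of guardians to effectors within a library is given as a description. On the length-scaled level, the log2 ratio of Bcl2 to Bax was -4.08 ± 0.588 in NLC-MI and -3.59 ± 0.691 in TgGRK5-MI (SD, n = 5 each), and the libraries of the groups overlapped, from -4.51 to -3.07 and from -4.48 to -3.01. The log2 ratio of Bcl2l1 to Bax was -1.19 ± 0.420 and -1.11 ± 0.491, and that of Mcl1 to Bak1 was 1.45 ± 0.734 and 1.22 ± 0.420. Mcl1 thus exceeded Bak1 by 1.38- to 5.44-fold in each of the 10 libraries. The ratio of Bax to Bak1 ran from 0.192 in NLC-MI replicate 3 to 1.25 in NLC-MI replicate 5, and its SD on the log2 scale was 0.98 over all 10 libraries and 0.48 without NLC-MI replicate 3 and TgGRK5-MI replicate 4. For the ratio of Bcl2 to Bax the same SDs were 0.66 and 0.58.

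Which members moved together among mice of the same group was asked with deviations of log2 CPM from the group means. There were 55 relations (45 pairs of members, and each member against the summed leukocyte markers). Of these, 4 had a Benjamini-Hochberg adjusted p under 0.05 in the two-sided exact permutation test within groups. All 4 were positive and between members. The test was not run on pairs of other genes, so this count does not set the members apart from genes in general. Bax and Bad had Pearson's r = 0.95 (n = 10 libraries, exact p = 0.000278, adjusted p = 0.0153) and Spearman's rho = 0.95 (exact p = 0.00125). Bad and Bbc3 had r = 0.85 (exact permutation p = 0.000694, adjusted p = 0.0191) and rho = 0.75 (p = 0.0256), and Bax and Bbc3 had r = 0.87 (exact permutation p = 0.00167, adjusted p = 0.0229) and rho = 0.77 (p = 0.0167). Pmaip1 and Bid formed the other pair, with r = 0.90 (exact permutation p = 0.00125, adjusted p = 0.0229) and rho = 0.76 (p = 0.0202). Without the 2 libraries farthest from the median of the x measure, r was 0.94 for Bax and Bad, 0.69 for Bbc3 and Bad, 0.72 for Bax and Bbc3, and 0.82 for Pmaip1 and Bid. Without NLC-MI replicate 3 and TgGRK5-MI replicate 4, r was 0.95, 0.72, 0.73 and 0.91 in the same order, and in the 7 libraries with the most counts it was 0.97, 0.60, 0.62 and 0.91. Other relations were stronger in these subsets. Bbc3 had r of 0.27 with Pmaip1 and 0.08 with Bid over all 10 libraries. Without NLC-MI replicate 3 and TgGRK5-MI replicate 4 these were 0.87 and 0.74, and in the 7 libraries 0.83 and 0.70. Without the same 2 libraries Bnip3 went from -0.56 to -0.94 with Pmaip1 and from -0.37 to -0.91 with Bid.

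**Figure D4:**
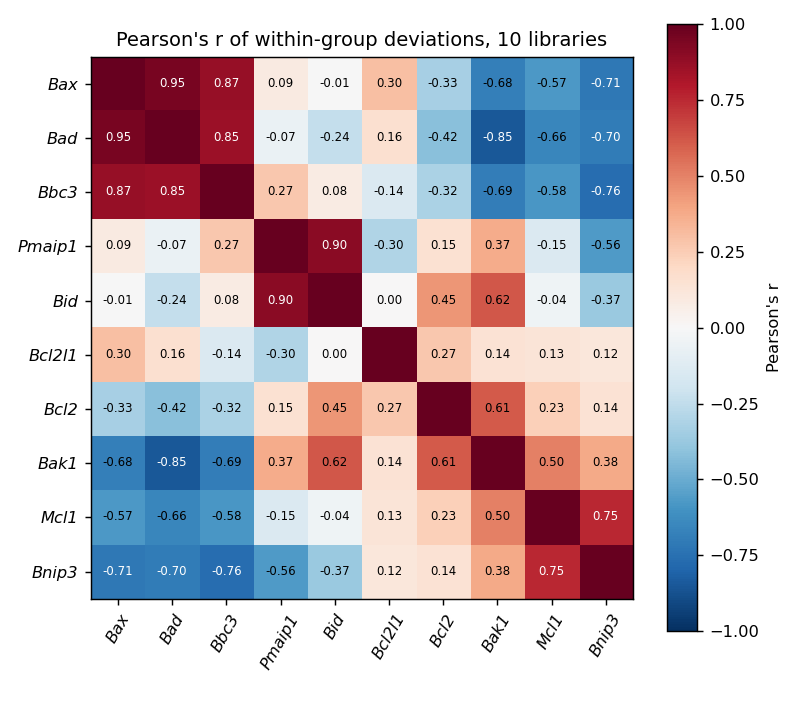
Pearson's r between members (rows and columns) of the deviations of log2 CPM from the group means over 10 libraries, from -1 (blue) to 1 (red). Bax, Bad and Bbc3 form a block with r from 0.85 to 0.95, and Pmaip1 and Bid a pair at 0.90. Without NLC-MI replicate 3 and TgGRK5-MI replicate 4, not drawn, Bbc3 also had r = 0.87 with Pmaip1 and 0.74 with Bid. Bak1, Mcl1 and Bnip3 have negative r with the block, none with an adjusted p under 0.05 by exact permutation.

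As the map of correlations shows, Bak1 ran opposite to Bad (r = -0.85, rho = -0.64, exact permutation p = 0.0106 and 0.0676, adjusted p = 0.0835). This relation rested on NLC-MI replicate 3 and TgGRK5-MI replicate 4, without which r was -0.24. In the 7 libraries with the most counts r was 0.27. With GC content and exon length removed from each of the 10 libraries, these 2 included, it was -0.91, and it was not computed without them. For Bak1 and Bax, r went from -0.68 (rho = -0.56, exact permutation p = 0.0532 and 0.116, adjusted p = 0.183) to 0.02 without NLC-MI replicate 3 and TgGRK5-MI replicate 4. It was -0.39 over all 10 libraries with GC content and length removed. In these 2 libraries Bak1 averaged 2.40 times its mean in the other 8, while Bax averaged 0.567, Bad 0.469 and Bbc3 0.439 times theirs. Mcl1 had r of -0.57, -0.58 and -0.66 with Bax, Bbc3 and Bad (adjusted p = 0.296, 0.296 and 0.18 by exact permutation). Without these 2 libraries r was -0.19, -0.19 and -0.34, and in the 7 libraries with the most counts 0.23, 0.18 and 0.27. Bnip3 had r of -0.71, -0.76 and -0.70 (adjusted p = 0.141 each by exact permutation), and -0.53, -0.73 and -0.50 without these 2 libraries.

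**Figure D5:**
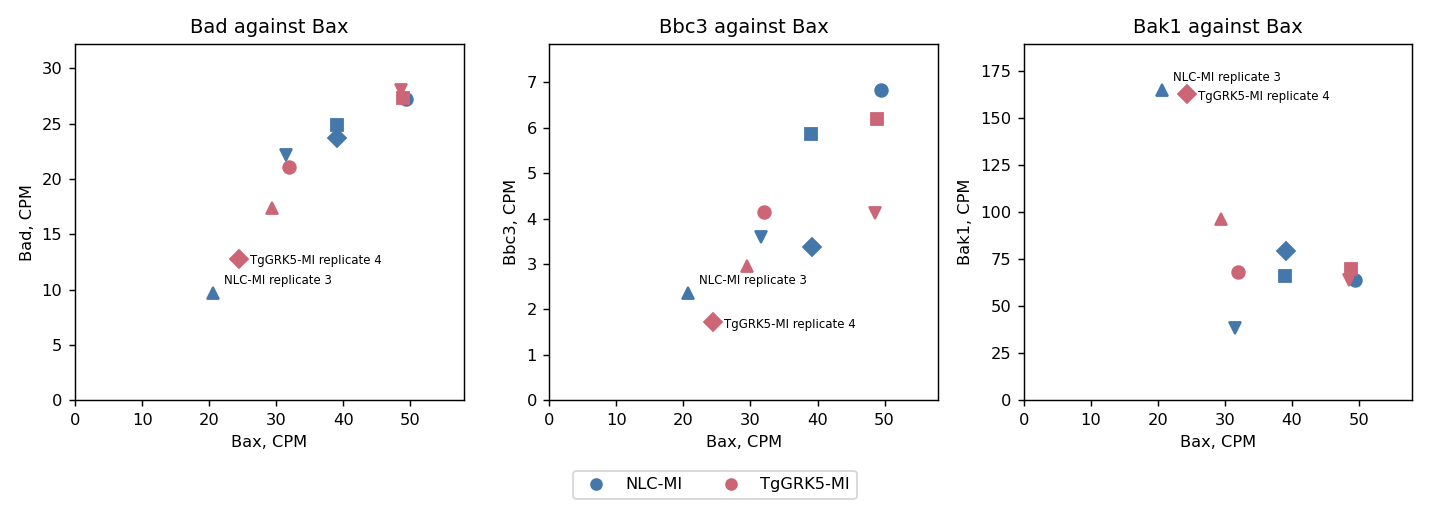
Bad, Bbc3 and Bak1 (y axes, CPM) against Bax (x axis, CPM) in the 10 libraries, with NLC-MI in blue, TgGRK5-MI in red and symbols for the replicate number. Bad is higher where Bax is higher, and Bak1 is near 160 CPM only in the labelled libraries, NLC-MI replicate 3 and TgGRK5-MI replicate 4.

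Properties of the libraries moved with these members. Across all genes tested, log2 CPM relative to the gene's mean changed with the GC content of the transcript by -0.30 per 10 percentage points in NLC-MI replicate 3 and by -0.27 in TgGRK5-MI replicate 4, against -0.04 to 0.21 in the other 8 libraries. The longest annotated transcripts of Bax and Bbc3 are 63.5% and 65.2% G and C, and those of Bad and Bak1 are both 57.1%. Those of the other members are at 55.9% (Bcl2l1), 51.3% (Bid), 48.7% (Mcl1), 46.3% (Bcl2), 42.1% (Pmaip1) and 41.6% (Bnip3). This GC slope of a library correlated with Bad (r = 0.92, rho = 0.76, exact permutation p = 0.00347 and 0.0138), Bax (r = 0.85, rho = 0.78, exact permutation p = 0.00438 and 0.0117) and Bbc3 (r = 0.83, rho = 0.73, exact permutation p = 0.00438 and 0.0268). It ran opposite to Bnip3 (r = -0.81, rho = -0.93, exact permutation p = 0.00438 and 0.00201) and Mcl1 (r = -0.79, rho = -0.84, exact permutation p = 0.00139 and 0.00646). For each of these 5 of the 10 members the adjusted p was 0.00875 by exact permutation. Of the other members, Bak1 had r = -0.75 (rho = -0.31, exact permutation p = 0.0398 and 0.429, adjusted p = 0.0663). The others had r = -0.32 (Bcl2), 0.03 (Bcl2l1), -0.16 (Bid) and -0.00 (Pmaip1). The slope was fitted over all genes tested, so GC-rich and GC-poor genes follow it in part by construction. No share over all genes was computed, so the 5 of 10 are not a result about the family. Without the 2 libraries farthest from the median slope, r was 0.54 for Bad, 0.54 for Bax and 0.56 for Bbc3. It was -0.89 for Bnip3, -0.73 for Mcl1 and 0.32 for Bak1. With a linear fit on GC content and exon length removed from each library, r became 0.69 for Bax and Bad, 0.60 for Bbc3 and Bad, 0.60 for Bax and Bbc3, and 0.84 for Pmaip1 and Bid. Summed leukocyte markers had r = 0.81 with both Bax and Bbc3 (rho = 0.75 and 0.65, exact permutation p = 0.00632 and 0.00743, adjusted p = 0.0681 each), which did not pass 0.05, and r was 0.68 and 0.65 without the 2 farthest libraries and 0.84 and 0.92 without NLC-MI replicate 3 and TgGRK5-MI replicate 4. Bnip3 ran opposite to the leukocyte markers (r = -0.78, rho = -0.85, exact permutation p = 0.0331 and 0.00951, adjusted p = 0.141), and Bad ran with them (r = 0.67, rho = 0.72, exact permutation p = 0.0344 and 0.0223, adjusted p = 0.141), neither passing 0.05. Without the 2 farthest libraries r was -0.73 for Bnip3 and 0.58 for Bad. Without NLC-MI replicate 3 and TgGRK5-MI replicate 4, r with the leukocyte markers was -0.71 for Bnip3, 0.75 for Bad, 0.83 for Bid and 0.80 for Pmaip1. Correlations of the members with markers of other cell types were not computed. Fibroblast markers summed to 17720, 18140 and 18540 CPM in NLC-MI replicates 1 and 2 and TgGRK5-MI replicate 2, the libraries highest in Bbc3 and Pmaip1. They summed to at most 10760 CPM in the others, with 6179 CPM in TgGRK5-MI replicate 5, which was high in Bax and Bad. Cardiomyocyte markers summed highest in NLC-MI replicate 5 (126400 CPM) and TgGRK5-MI replicate 3 (104400 CPM), the libraries lowest in Bid and Pmaip1. The part of RNA from leukocytes or other cells in the levels of these genes was not tested.

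The pathway around the family was examined through 5 hand-written lists with 72 genes, of which 66 passed the filter on low counts. At an adjusted p under 0.10 there were 0 of 66 (12 of the 15232 genes tested, 0.0788%), and at an unadjusted p under 0.05 there were also 0 of 66 with edgeR (3.85% of the genes tested), against 4 with limma-voom and sample quality weights, a fit that put 1810 of all genes tested under that value. By point estimate TgGRK5-MI was higher for 33 and lower for 33, with a median log2 fold change of -0.00, and 59 of the 66 had a 95% interval inside 2-fold.

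Of the other BCL2 family genes (15 genes), 10 were tested, 5 of them higher and 5 lower by point estimate. The guardian gene Bcl2l2 averaged 65.6 ± 9.25 CPM for NLC-MI against 57.3 ± 12.9 CPM for TgGRK5-MI, and Bnip3l averaged 76.6 ± 9.24 and 88.0 ± 5.24 CPM (SD, n = 5 per group). Bcl2l2 had a log2 fold change of -0.19 (95% interval -0.57 to 0.18). Bcl2l11, which encodes the BH3-only protein BIM, was at 13.2 ± 2.95 and 11.3 ± 4.28 CPM, with a log2 fold change of -0.22 (95% interval -0.77 to 0.34). Bcl2l10 had 0 counts in each library, which allows up to 3 counts, or 0.392 CPM in the smallest library, and Bcl2a1a, Hrk, Bcl2l14 and Bcl2l15 had at most 11 counts. The Bcl2a1 genes are near-identical copies, so the split of reads between Bcl2a1a, Bcl2a1b and Bcl2a1d is uncertain.

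Downstream, all 15 genes of the apoptosome, caspases and IAP proteins were tested, 8 higher and 7 lower by point estimate. Cycs, which encodes cytochrome c, ran from 211.7 to 1173 CPM for NLC-MI and from 207.1 to 1332 CPM for TgGRK5-MI, with a log2 fold change of 0.49 (95% interval -0.77 to 1.75). The level of Cycs thus varied several-fold within each group. Diablo, whose product relieves the inhibition of caspases, was at 61.6 ± 14.0 and 74.0 ± 13.2 CPM (log2 fold change 0.26, 95% interval -0.13 to 0.65). Of the 17 upstream regulators 6 were higher and 11 were lower by point estimate, with all 17 intervals inside 2-fold. Among them Atf4, a factor of the integrated stress response, had a log2 fold change of 0.22 (95% interval -0.10 to 0.54), and Akt1, a survival kinase that phosphorylates BAD, had a log2 fold change of -0.18 (95% interval -0.57 to 0.21). Of the death receptor and necroptosis genes 10 of 11 were tested, 8 higher and 2 lower by point estimate, all with intervals inside 2-fold. Tnfrsf1a, a receptor for tumor necrosis factor, had a log2 fold change of 0.05 (95% interval -0.33 to 0.42), and Fadd, an adaptor in death receptor signaling, one of 0.20 (95% interval -0.33 to 0.73). The 14 genes of mitochondrial permeability and mitophagy split into 6 higher and 8 lower. Vdac1, the outer membrane channel, was at 904.2 ± 299.9 and 880.1 ± 159.9 CPM, and Slc25a4, the adenine nucleotide carrier, was at 4247 ± 1607 and 4541 ± 1135 CPM (SD, n = 5 each), with log2 fold changes of -0.04 and 0.10.

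Mybl1, Gm4737 and Slc9a3 had the profiles most like that of Bcl2 among the genes tested, with Pearson's r of 0.97, 0.93 and 0.92 of log2 CPM over the 10 libraries. These values describe the closest of 15232 genes over few libraries that also differ in group. Mybl1 encodes a transcription factor of the MYB family and ran from 1.57 to 9.46 CPM.

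The leukocyte markers were higher in TgGRK5-MI by point estimate for all 10 of the 12 that passed the filter on low counts, with 0 at an unadjusted p under 0.05. Their sum ran from 544.4 to 1606 CPM for NLC-MI and from 899.4 to 1841 CPM for TgGRK5-MI (two-sided exact permutation test, p = 0.222). For Bcl2 itself, the correlation with these markers within groups was r = -0.15 (rho = -0.30, exact permutation p = 0.741 and 0.439, adjusted p = 0.841), and r was -0.09 without the 2 farthest libraries.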

How the data were processed

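RNA-Seq was performed by the authors on cardiomyocytes, with Illumina TruSeq RNA v2 libraries. The authors deposited whole-number counts per Ensembl gene, not normalized. The submitters' processing notes name Bowtie2, RSEM 1.2.31, DESeq2 and mm10 without their roles; if RSEM made the counts, they are estimates. Strand setting and annotation version are not given in the sources used here.

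Symbols and exon lengths came from GENCODE M21 (51596 of 51789 identifiers). In R 4.3.3, edgeR 4.0.16 was run with TMM, filterByExpr and the quasi-likelihood F test, and p-values were adjusted by Benjamini-Hochberg over 15232 genes. The threshold was an adjusted p under 0.10, as in the study. Intervals (95%) come from that fit. log2 CPM used a prior count of 2. Correlations were tested over all 14400 orders within groups. Adjusted p-values there belong to Pearson's r.

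Members and lists were chosen with earlier results of these data known. Genes named from the lists were the 2 most abundant per length of each list and those with an unadjusted p under 0.05; Bcl2l11, Bcl2l10 and the genes under the filter were added after their values were seen, as were the GC slope and the fits without small libraries. Alternatives used limma 3.58.1, DESeq2 1.42.0 and sva 3.50.0. The sex score of a library was the log2 CPM of Xist less the mean of Ddx3y, Uty, Kdm5d and Eif2s3y. Whether the sexes were balanced between the groups was not tested. Same-numbered libraries are different mice (correlation of deviations 0.172 on average, from -0.341 to 0.662) and were not paired.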

Additional observations from a re-analysis of the deposited data

Results flagged for a closer look

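Of 40 sets of 5 libraries (the 10 members and the 10 genes named by rule from the lists, in each group), 1 held a library far from its group, where chance flags about 1 in 20. Bad in NLC-MI replicate 3, at 9.67 CPM, lay below the other NLC-MI libraries, which ran from 22.2 to 27.2 CPM; the gap took up 0.802 of the group's range on the log2 scale. This library has the fewest counts of all and the steepest GC slope, and the part of either in the value was not tested.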

How the results depend on the processing

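No member and no gene of the 5 lists had an adjusted p under 0.10 in any of the 22 alternatives (normalization, test, filter, covariates and libraries left out). The number of members with an unadjusted p under 0.05 stayed at 1 in the alternatives that kept all libraries, was 0 in the 7 libraries with the most counts, and ran from 0 to 1 with each library left out in turn. For the lists this number, 0 in the reported fit, was 1 with library size alone, 1 with a surrogate variable, 2 with a sex score as covariate, 4 with limma-voom and sample quality weights, 1 in the 7 libraries with the most counts, and 0 to 2 with each library left out. Over all genes tested, the 12 genes at an adjusted p under 0.10 became 69 with DESeq2 (which here also tested 28506 genes, without the filter of the reported fit), 50 with limma-voom and the same weights, 21 with a surrogate variable, 20 with library size as covariate, 4 with the sex score, 6 in the 7 libraries with the most counts, 7 with the 2 smallest libraries dropped, and 3 to 10 with each library left out. The 586 genes at an unadjusted p under 0.05 became 1810 with limma-voom and these weights, 1163 without a filter, 1052 with a surrogate variable, 947 with library size as covariate, and 457 to 1069 with each library left out. The causes were not tested. The fits with library size as covariate, with the 7 largest and with 8 libraries were chosen after seeing the data.

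The sign of Bcl2, Bcl2l1, Bbc3 and Bnip3 was the same in all 22 alternatives, with sizes that moved: leaving out each library in turn gave 0.38 to 0.60 for Bcl2, 0.01 to 0.22 for Bcl2l1 (lowest without TgGRK5-MI replicate 5), -0.44 to -0.0045 for Bbc3 (nearest 0 without NLC-MI replicate 1) and 0.04 to 0.22 for Bnip3 (lowest without NLC-MI replicate 2). The sign of the other 6 members changed in at least 1 alternative. The log2 fold change of Mcl1 was 0.0185 with limma-voom and weights, 0.0018 without a filter and 0.0550 with the sex score (-0.0538 to 0.0459 with each library left out). That of Bax was -0.0605 with limma-voom, -0.0461 with the sex score and -0.00057 with the 2 smallest libraries dropped (-0.11 to 0.15 with each left out). Bid was at -0.00697 with limma-voom (-0.0927 to 0.29), and Pmaip1 at 0.0431 in the 7 largest libraries (-0.30 to 0.0765). Bad was at 0.0072 with the replicate block, 0.11 with a surrogate variable, 0.10 with library size as covariate and 0.0487 in the 7 largest libraries (-0.20 to 0.12). Bak1 ran from -0.14 to 0.57 with each library left out and was 0.63 with the sex score. With the replicate number as a block, 8 genes over the whole table had an adjusted p under 0.10 against 12 without it, the log2 fold change of Bcl2 was 0.51, and 2 of 10 libraries correlated best with their own number.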
